A study of Mus musculus with 24 samples.

Results

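The HOX cluster genes are the 39 genes of the deposited table whose symbol is Hoxa, Hoxb, Hoxc or Hoxd followed by a number, among 51912 genes. They were chosen by symbol alone, with no measured value. In mm10 they lie in 4 clusters: 11 Hoxa genes on chromosome 6 (52155590 to 52260880, minus strand), 10 Hoxb genes on chromosome 11 (96194316 to 96368256), 9 Hoxc genes on chromosome 15 (102921103 to 103036852) and 9 Hoxd genes on chromosome 2 (74668310 to 74765142), the last 3 clusters on the plus strand. Genes that share a number across clusters are paralogues, copies left by duplication of an ancestral cluster.

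HOX genes encode transcription factors that bind DNA through a homeodomain, usually together with cofactors of the PBX and MEIS families. Along the body axis low-numbered genes are switched on earlier and further forward, and high-numbered genes later and further back, so that a tissue carries a record of the level at which it formed. In mouse lung they are known mainly from the mesenchyme, where Hoxa5 is needed for normal airway and alveolar development. Polycomb and Trithorax group complexes keep HOX genes off or on, and retinoic acid switches on genes at the low-numbered end.

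RNA was sequenced from whole mouse lungs at embryonic day 16 (E16), at birth (P0) and at postnatal day 3 (P3), with 4 control and 4 conditional knockout (CKO) libraries at each stage, 24 in all. Every title names the Tbx4rtta and tetocre transgenes, so controls carry them too. Tbx4-driven rtTA is active in lung mesenchyme and, with doxycycline, turns on Cre. Doxycycline was fed to the dams from E12 in every group. CKO lungs were Sin3a F/F at each stage, and controls were Sin3a F/+ at E16 and P0. The titles give P3 controls as F/F as well, the same genotype as P3 CKO lungs, so the P3 groups rest on the words control and CKO. Sin3a encodes a corepressor protein on which histone deacetylases assemble. Titles call the libraries biological replicates and do not say from which litter or animal each came, so p-values measure the spread between these libraries.

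Libraries held 27018100 to 36347000 counts (rounded). Levels are counts-per-million (CPM) after scaling of library sizes, and comparisons between genes use CPM per kilobase of exon. Sin3a itself ranged from 105 to 144 CPM at E16, from 86.3 to 114 CPM at P0 and from 88.1 to 107 CPM at P3, and control and CKO libraries overlapped at each stage. A whole-gene count from whole lung does not separate deleted exons or cells without Cre, so it does not check the labels. All 12 lung markers, among them Sftpc, Nkx2-1 and Foxf1, were detected in every library. At P0, 3 libraries stood apart in markers of other tissues. Summed thymus markers reached 1930 CPM in P0 control replicate 3 and 1497 CPM in P0 CKO replicate 1, against 4.90 to 14.8 CPM in the other 6 libraries. P0 CKO replicate 3 had 401 CPM of cartilage markers against 25.5 to 68.8 CPM in the others, and the highest sum of spinal cord and neuron markers, 286 CPM against 124 to 205 CPM. Its skeletal muscle markers summed to 1203 CPM against 48.03 to 182 CPM, and oesophagus markers in P0 control replicate 3 to 517 CPM against 2.74 to 13.99 CPM. For some results that include P0, values without these 3 libraries are therefore given as well.

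The homeobox, the stretch that encodes the homeodomain, shows how alike paralogues are and how far reads can tell them apart. Those of Hoxa4 and Hoxc4 are shown because Hoxa4 was called in a comparison of CKO with control lungs and its paralogue Hoxc4 stayed low. They are printed 5′ to 3′ on the coding strand from the GENCODE transcripts of mm10, and capitals mark the 18 bases that encode the 6-residue motif by which each homeobox was found. The intervals are chr6:52190483-52190662 (minus strand) and chr15:103035663-103035842 (plus strand).
Hoxa4: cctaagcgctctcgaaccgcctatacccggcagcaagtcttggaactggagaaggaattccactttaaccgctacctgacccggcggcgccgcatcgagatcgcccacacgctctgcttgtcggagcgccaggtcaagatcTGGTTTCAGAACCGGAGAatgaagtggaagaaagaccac
Hoxc4: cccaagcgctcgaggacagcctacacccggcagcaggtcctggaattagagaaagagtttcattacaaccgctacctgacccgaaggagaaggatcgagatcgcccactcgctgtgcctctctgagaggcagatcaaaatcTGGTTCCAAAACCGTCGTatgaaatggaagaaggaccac
Over these 180 bases Hoxa4 shares 78.9% of positions with Hoxc4, while 3 of the encoded residues differ. Hoxa5 and Hoxb5 encode the same 60 residues with 83.9% of bases shared. The longest exact run that any transcript of Hoxa4 shares with another member is 24 bases, with Hoxa2. Hoxa2, Hoxa5, Hoxb2, Hoxb3, Hoxb4 and Hoxb5 were searched in the same way, and pairs among the other members were not. The longest run found in these searches was 52 bases, between Hoxb4 and Hoxa6. Hoxb4 and Hoxa7 share one of 47 bases, as do Hoxb3 and Hoxd3. Neither read length nor annotation is known here, so reads within the longer runs could be split between members.

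Of the 39 members, 10 were expressed throughout, that is, at 1 CPM or more in all 4 libraries of each of the 6 groups, among them Hoxa2, Hoxa3, Hoxa4, Hoxa5, Hoxb2, Hoxb3, Hoxb4, Hoxb5 and Hoxb7. Another 3, Hoxa7, Hoxb6 and Hoxb8, met the limit in some groups only. The remaining 26 were low, including all 18 Hoxc and Hoxd genes and all 16 members numbered 9 to 13. With a limit of 0.5 CPM, 12 members were expressed throughout, and with 1 CPM per kilobase 7 were, in each case from the Hoxa and Hoxb clusters alone. Summed per kilobase, the Hoxa cluster gave 54.3 to 71.1% of the HOX total of a library (median 65.8%) and the Hoxb cluster 27.9 to 45.2% (median 32.5%). The Hoxd cluster gave at most 2.73% and the Hoxc cluster at most 1.03%.

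**Figure D1:**
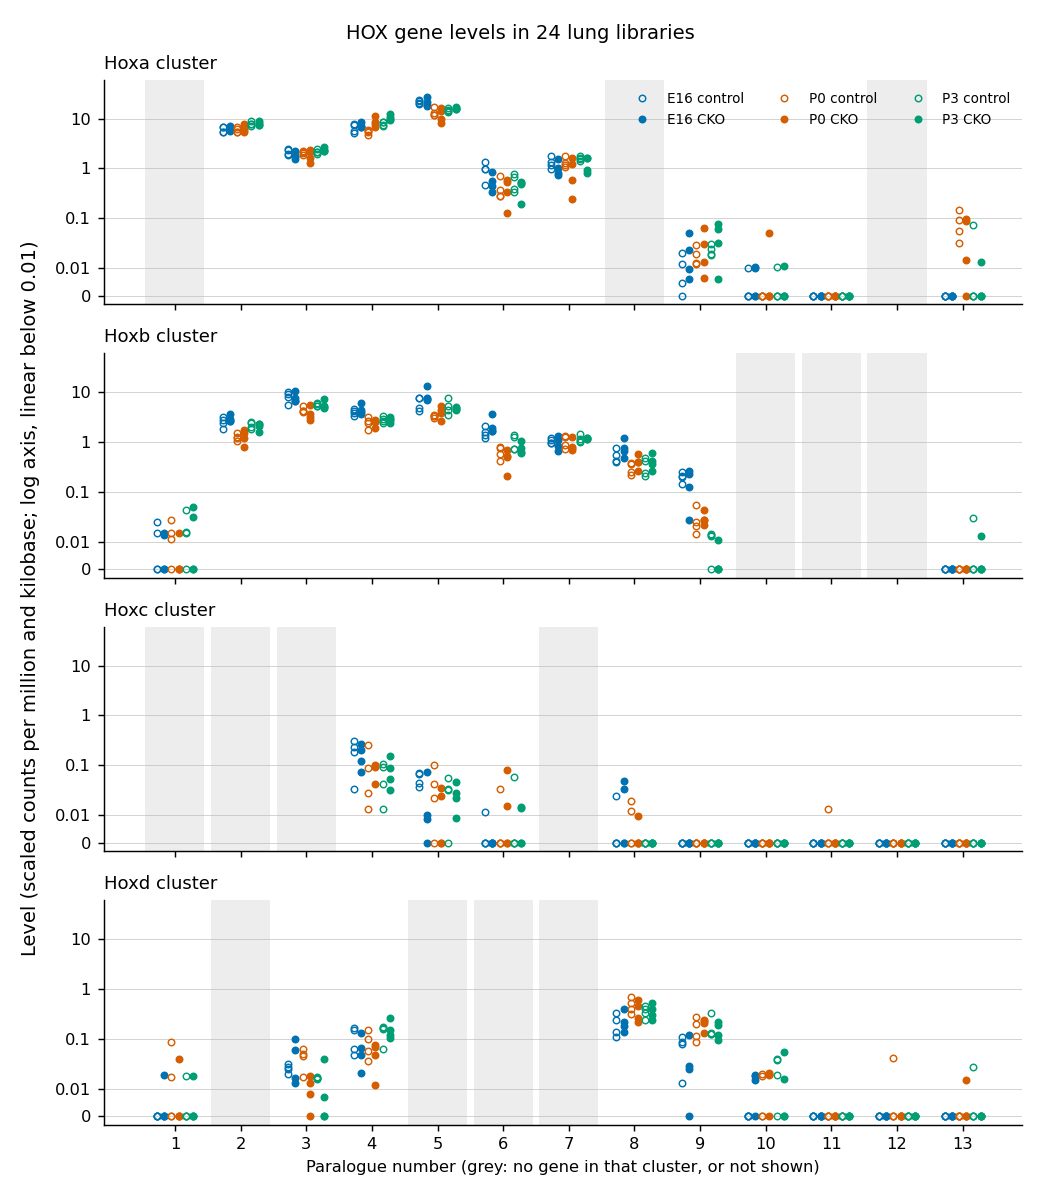
Level of HOX members in scaled counts-per-million and kilobase (log axis, linear below 0.01) by paralogue number, 1 panel per cluster. Each point is 1 of 24 libraries, open for control and filled for CKO, coloured by stage. Members 2 to 5 of the Hoxa and Hoxb clusters lie above 0.5 in the libraries shown, and Hoxc and Hoxd members lie below 1.

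Hoxa5 was the most abundant member per kilobase, at 16.5 ± 4.502 CPM per kilobase (SD over 24 libraries). In mouse its loss leads to respiratory failure in many newborns. Within the Hoxa cluster it was followed by Hoxa4, which patterns the neck vertebrae, at 7.70 ± 1.98 CPM per kilobase and by Hoxa2, a hindbrain and branchial arch gene, at 6.76 ± 1.15 CPM per kilobase. Hoxa2 was at 11.8, 12.1, 9.71 and 9.48 CPM in E16 controls, 10.9, 9.76, 9.56 and 12.05 CPM in P0 controls and 13.97, 16.1, 13.6 and 12.6 CPM in P3 controls. In CKO lungs it was at 10.8, 10.4, 12.7 and 9.899 CPM, 11.4, 10.4, 9.47 and 13.8 CPM and 14.5, 16.02, 13.3 and 13.5 CPM at the same stages, and control and CKO libraries overlapped at each. The SDs of Hoxa4 and Hoxa2 per kilobase overlap, so their order is not separated by the spread between libraries.

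In the Hoxb cluster the 3 highest were Hoxb3, known from the hindbrain and pharyngeal organs, at 5.87 ± 2.02 CPM per kilobase, Hoxb5, which acts with Hoxa5 in mouse airway branching, at 5.32 ± 2.30 CPM per kilobase, and Hoxb4, a gene of the neck and sternum, at 3.17 ± 0.945 CPM per kilobase. Here too Hoxb3 and Hoxb5 overlap. Hoxa3, needed for thymus and parathyroid development, reached 2.08 ± 0.327 CPM per kilobase over the union of its exons and 4.83 CPM per kilobase over its longest transcript, which is the largest effect of the choice of length among the expressed members. Hoxb7, a gene of the trunk, was at 1.04 ± 0.221 CPM per kilobase.

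Neighbours in a cluster could differ widely. Hoxa6, which lies next to Hoxa5, ranged from 0.111 to 1.19 CPM over 24 libraries, against 15.4 to 51.2 CPM for Hoxa5. Per kilobase their means were 0.544 and 16.5. Beyond Hoxa6, Hoxa7 was at 0.715 to 5.21 CPM. In the Hoxb cluster the first gene, Hoxb1, had 21 counts in all libraries together, whereas Hoxb2 beside it had 5329.

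Among the low members Hoxd8, a gene of the trunk axis, came closest to the limit, at 0.297 to 1.93 CPM, but met it in all 4 libraries of no group. Hoxc4 and Hoxd4, the other paralogues of group 4, had at least 1 count in every library but no more than 0.789 and 0.778 CPM. Hoxc5, which shares its number with Hoxa5 and Hoxb5, reached 0.321 CPM, in P0 control replicate 3. No count at all was seen for 6 members, Hoxa11, Hoxc9, Hoxc10, Hoxc12, Hoxc13 and Hoxd11. Over the counts of all libraries, 0 counts allow a level of up to 0.00401 CPM (3 counts, counting error only). Hoxc11, Hoxd12, Hoxb13 and Hoxd13 had 1, 4, 3 and 3 counts. Genes with these high numbers are known from limbs, urogenital tract and hindgut.

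CKO lungs were compared with controls at each stage with edgeR's quasi-likelihood test on all genes. It asks whether HOX levels differed between the libraries labelled CKO and control. At E16, 17 members passed the filter on low counts and 0 of them had an adjusted p under 0.05 (Benjamini-Hochberg), where 0.0181% of 16606 genes did. At P0 the count was 0 of 16 members, where 0.0407% of 17198 genes were called (0.0116% higher, 0.0291% lower), and at P3 0 of 16, where 0.0117% of 17113 were. At unadjusted p under 0.05 there were 0, 1 and 1 members, against 10.5%, 6.44% and 15.4% of all genes, and DESeq2 called 0, 0 and 1 members, against 1.78%, 1.1% and 3.51% of all genes. Signs were mixed, with 9, 6 and 10 members higher in CKO lungs, and medians of 0.00, -0.10 and 0.01 on the log2 scale against -0.01, -0.02 and -0.01 over all genes tested.

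Averaged over the 3 stages, which uses all 24 libraries, 1 of 19 tested members was called, where 8.38% of 18415 genes were called and 5.38% were called higher. That member was Hoxa4. Its log2 fold change was 0.44 ± 0.10 (SE) with an adjusted p of 0.00535 by edgeR. The median over the 19 members was -0.09 and over all genes -0.02. The stage average was first tested in an earlier analysis of these data, after its counts at each stage had been seen. It was therefore not planned ahead of them.

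Hoxa4 (ENSMUSG00000000942, mm10 chromosome 6, 52189671 to 52191753) was measured at E16 at 11.7, 12.1, 8.84 and 8.001 CPM in controls and at 11.04, 11.5, 13.8 and 10.9 CPM in CKO lungs, and these groups overlap. At P0 controls had 7.51, 9.36, 9.08 and 8.54 CPM and CKO lungs 13.7, 12.5, 10.9 and 17.7 CPM. All 4 CKO libraries lay above all 4 controls, the highest being CKO replicate 4. At P3 controls had 13.5, 13.3, 11.1 and 11.7 CPM and CKO lungs 14.96, 19.5, 16.0 and 17.5 CPM, again without overlap. Over all genes tested, groups did not overlap for 5.74% at E16 (3.53% higher in CKO lungs, 2.22% lower), for 4.6% at P0 (2.75% and 1.85%) and for 7.45% at P3 (4.11% and 3.34%). No other tested member had groups that did not overlap at any of the 3 stages.

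As ratios of group means Hoxa4 was 1.16 times the control level at E16, 1.59 times at P0 and 1.37 times at P3. Tested stage by stage with edgeR, the log2 fold change was 0.23 ± 0.15 at E16 (adjusted p = 0.654), 0.65 ± 0.21 at P0 (unadjusted p = 0.0106, adjusted p = 0.514) and 0.45 ± 0.13 at P3 (unadjusted p = 0.00446, adjusted p = 0.180), so no single stage passed the threshold. Across 19 alternatives the P0 log2 fold change ranged from 0.51 to 0.82. In a fit of all 24 libraries by edgeR the P0 difference had an adjusted p of 0.0412. At P3 it was 0.0259 with DESeq2, 0.0373 with limma-voom and sample quality weights and 0.0325 with edgeR when P3 CKO replicate 1 was left out. The stage average was called under all 33 alternatives, with log2 fold changes of 0.39 to 0.48 and adjusted p from 0.000118 to 0.0222 across edgeR, DESeq2 and limma.

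**Figure D2:**
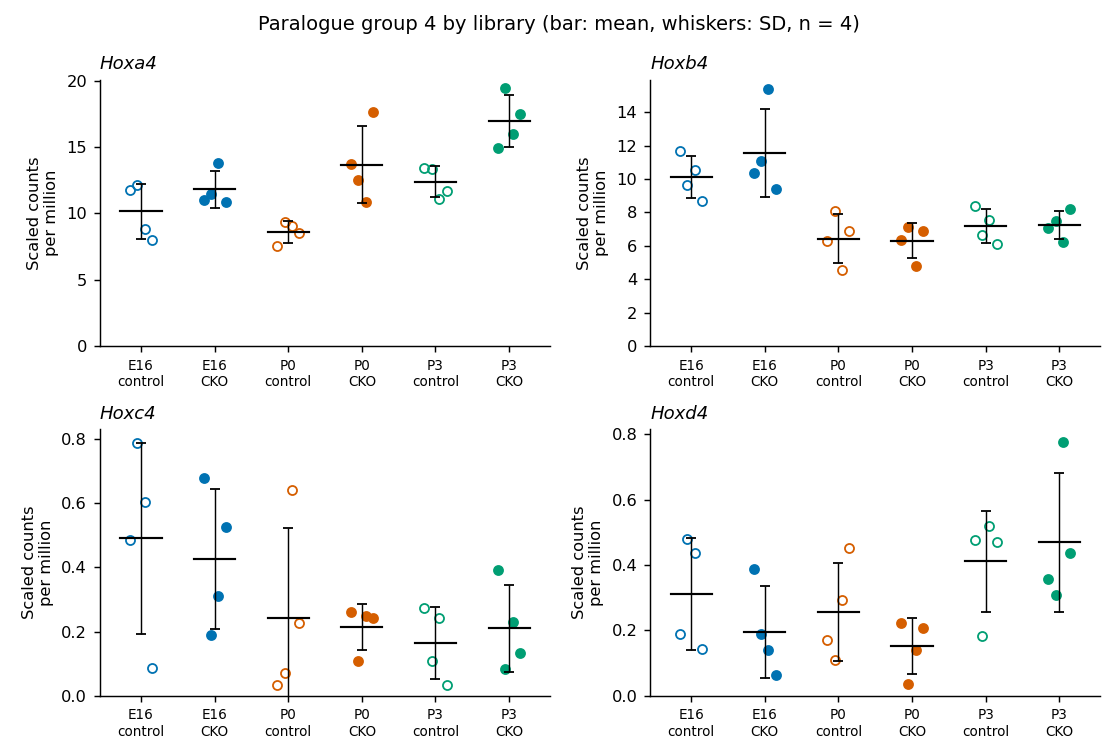
Scaled counts-per-million of the 4 genes of paralogue group 4 in each of 24 libraries, open for control and filled for CKO, with the mean and SD of each group of 4 (whiskers end at 0). Hoxa4 in CKO lungs lies above all controls at P0 and P3, while for Hoxb4 control and CKO libraries overlap at each stage. Hoxc4 and Hoxd4 stay below 0.8.

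Hoxb4, the Hoxb paralogue of Hoxa4, was at 11.7, 9.64, 10.5 and 8.65 CPM in E16 controls and 10.4, 11.1, 15.4 and 9.402 CPM in E16 CKO lungs. At P3 it was at 8.38, 6.66, 7.56 and 6.102 CPM and 7.05, 7.51, 6.25 and 8.18 CPM. The groups overlap at both stages, and the stage average log2 fold change was 0.06 ± 0.10 (adjusted p = 0.806, edgeR). Its group means at P0 were 6.44 ± 1.46 CPM in controls and 6.29 ± 1.05 CPM in CKO lungs (SD, n = 4). The cluster neighbours of Hoxa4 did not pass the test either, at -0.09 ± 0.10 for Hoxa3 and 0.00 ± 0.10 for Hoxa5. Whether Hoxa4 differs from these genes in its response was not tested.

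Several measurements bear on Hoxa4. Without the 3 marker-high P0 libraries its average log2 fold change was 0.45 ± 0.10 (adjusted p = 0.00907, edgeR). Summed spinal cord and neuron markers were 165 to 205 CPM in P0 controls and 124 to 286 CPM in P0 CKO lungs. At P3 they were 143 to 163 CPM in controls and 115 to 171 CPM in CKO lungs. Summed lung markers were 11454 to 18915 CPM in P0 controls and 12679 to 16499 CPM in P0 CKO lungs, and 13341 to 16873 CPM and 11771 to 15220 CPM at P3. In the stage average 0 of 12 lung markers had a positive sign, and Foxf1, a transcription factor of lung mesenchyme, was called lower in CKO lungs at -0.40 ± 0.12 (adjusted p = 0.0373, edgeR), a call made under 21 of 33 alternatives. Its means were 218 ± 58.3 CPM in P0 controls and 146 ± 40.6 CPM in P0 CKO lungs (SD, n = 4). The part of these markers in the Hoxa4 difference was not tested. The libraries carry identifiers whose first part is shared between some controls and CKO lungs and is not explained in the labels. Within sets of libraries that share it, mean Hoxa4 was higher in CKO lungs at P0 and P3, which follows from groups without overlap. At E16 the log2 ratio of CKO to control means was 0.41 in the set of 2 controls and 2 CKO lungs. It was 0.24 and -0.14 in the sets of 1 control and 1 CKO library. Hoxa4 shares 255 exon bases (16.0%) with the antisense gene Gm29430, which did not exceed 0.618 CPM in any library. In whole-lung RNA a change in the share of a cell type and a change in RNA per cell cannot be told apart.

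Other members with the smallest p in these comparisons did not pass the adjustment. Hoxb8, known in mouse from microglia and from patterning of the trunk, was at 1.97, 1.44, 1.04 and 1.08 CPM in E16 controls and at 1.26, 1.98, 3.16 and 1.74 CPM in E16 CKO lungs. The groups overlap. The average log2 fold change was 0.43 ± 0.20 (adjusted p = 0.195, edgeR). A p that misses the threshold does not show that levels were alike.

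Hoxb5 at E16 was at 21.7, 21.2, 13.5 and 11.5 CPM in controls and at 21.2, 20.7, 36.3 and 19.1 CPM in CKO lungs, and CKO replicate 3 stood above the other 7. The log2 fold change was 0.53 ± 0.26 (adjusted p = 0.509, edgeR), and -0.13 ± 0.20 at P3. Hoxa6 at E16 gave -0.77 ± 0.39 (adjusted p = 0.520) on no more than 44 counts in any library. Hoxb6 at P3 gave -0.44 ± 0.29 (adjusted p = 0.494) and Hoxa5 0.14 ± 0.09 (adjusted p = 0.497, edgeR).

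**Figure D3:**
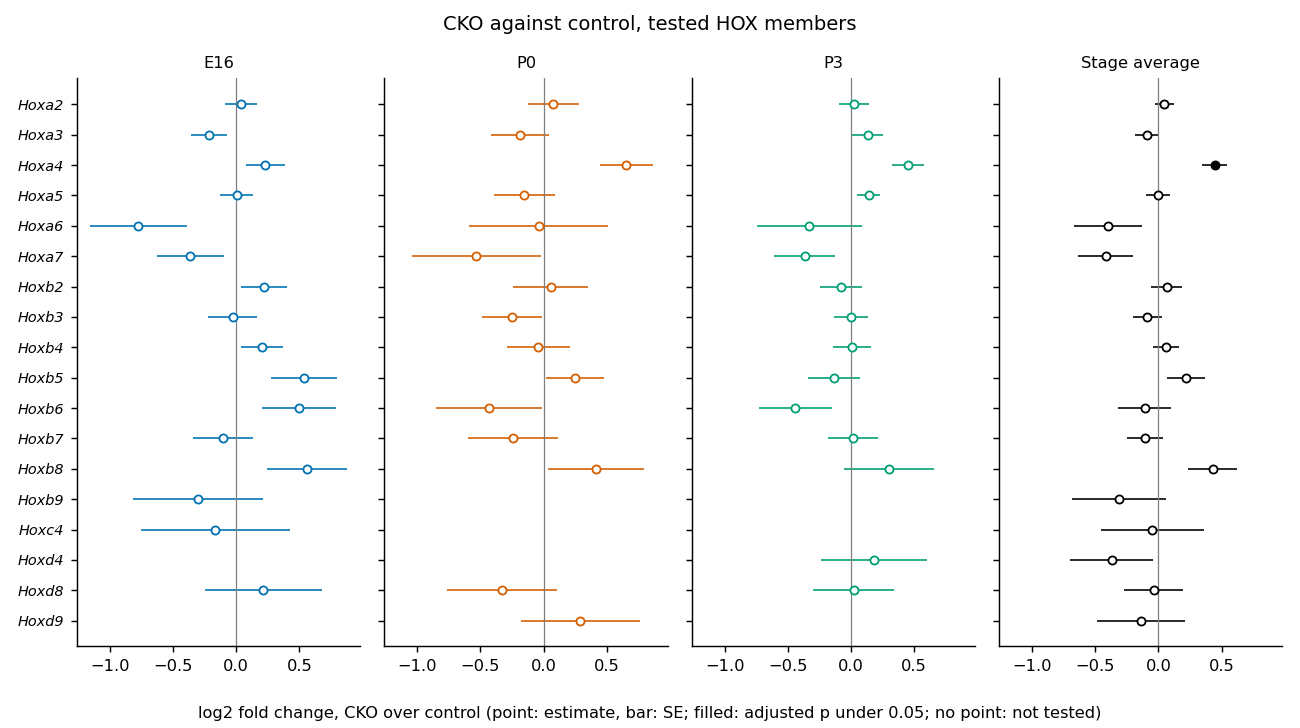
log2 fold change of CKO over control (x axis) for tested HOX members (y axis, by cluster and number), at E16, P0 and P3 and averaged over stages. Points are edgeR estimates, bars are SE, filled points have an adjusted p under 0.05, and members listed without a point were not tested. The filled point is Hoxa4 in the stage average, at 0.44.

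Between E16 and P0 most tested Hoxb genes fell. In all, 19 of the 39 members passed the filter over 24 libraries. Of these, Hoxb9 and Hoxd9 passed it through the groups in which they were high, so the counts here leave them out and their values are given apart. Hoxc4, highest at E16, passed the filter of the single-stage fits at E16 alone, and Hoxd4 at P3 alone. Both stay in the counts and medians here. Neither was called from E16 to P0, with log2 fold changes of -0.94 (controls) and -0.97 (CKO lungs) for Hoxc4 and -0.25 and -0.36 for Hoxd4. In controls 5 of the other 7 tested Hoxb members and 2 of 7 Hoxa members (Hoxa5 and Hoxa6) were lower at P0, and Hoxd8 was higher, by edgeR with adjusted p under 0.05. In CKO lungs 6 of 7 Hoxb members and 1 of 7 Hoxa members (Hoxa5) were lower. Of all genes tested, 47.7% were called in controls (25.3% higher, 22.3% lower) and 45.4% in CKO lungs (24.7% higher, 20.6% lower), with 54% and 52.4% at unadjusted p under 0.05. The members called, 8 of 17 in controls and 7 of 17 in CKO lungs, are near that background in number. All but Hoxd8 in controls were lower. The median log2 fold change over the 17 members was -0.65 in controls and -0.47 in CKO lungs, against 0.05 and 0.06 over all genes, and over the 7 Hoxb members it was -0.88 and -1.07. Whether the clusters differ from each other was not tested.

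Hoxb2, which acts in hindbrain motor neurons, was at 11.04, 9.81, 8.47 and 6.21 CPM in E16 controls and at 4.29, 4.27, 3.61 and 5.22 CPM in P0 controls. No P0 library reached the E16 range. The log2 fold change was -1.03 ± 0.22 (adjusted p = 0.000649) in controls and -1.17 ± 0.22 (adjusted p = 0.000208, edgeR) in CKO lungs.

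Hoxb3 went from 38.5, 42.0, 33.5 and 23.5 CPM in E16 controls to 17.6, 17.5, 17.1 and 22.8 CPM in P0 controls, just without overlap. In CKO lungs it went from 28.2, 28.03, 44.8 and 32.4 CPM to 15.7, 11.8, 13.2 and 22.9 CPM. The log2 fold changes were -0.88 ± 0.21 (adjusted p = 0.00146) and -1.07 ± 0.21 (adjusted p = 0.000250, edgeR). Hoxb2 and Hoxb3 share 953 and 2250 exon bases with the antisense gene Hoxb3os, and whether counting used strand is not stated. Hoxb3os itself was at 1.99 to 2.79 CPM in E16 controls and 2.47 to 3.40 CPM in P0 controls, a log2 fold change of 0.28 ± 0.30.

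Hoxb6, a gene of the trunk and forelimb region, went from 4.16, 3.16, 2.75 and 2.33 CPM to 1.54, 1.52, 0.830 and 1.13 CPM in controls. In CKO lungs it went from 3.24, 3.26, 7.15 and 3.75 CPM to 1.34, 1.04, 0.415 and 0.966 CPM. Neither pair of groups overlaps, the highest value being E16 CKO replicate 3 and the lowest P0 CKO replicate 3. The changes were -1.31 ± 0.35 (adjusted p = 0.00376) and -2.21 ± 0.36 (adjusted p = 3.35e-05, edgeR), and without the 3 marker-high P0 libraries -1.15 ± 0.33 and -2.11 ± 0.40.

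Hoxb5 went from a mean of 17.0 ± 5.22 CPM to 9.21 ± 0.576 CPM in controls and from 24.3 ± 8.01 CPM to 11.05 ± 2.98 CPM in CKO lungs (SD, n = 4). Hoxb4 went from 10.1 ± 1.28 CPM to 6.44 ± 1.46 CPM and from 11.6 ± 2.65 CPM to 6.29 ± 1.05 CPM. Both passed the test in both genotypes, with log2 fold changes of -0.88 and -1.14 for Hoxb5 and -0.65 and -0.88 for Hoxb4. Hoxb7 did not, at 1.62 ± 0.203 CPM and 1.60 ± 0.455 CPM in controls and a log2 fold change of -0.02 ± 0.25.

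Hoxa5 was the abundant Hoxa member that fell, from 43.5, 43.2, 39.3 and 36.1 CPM in E16 controls to 22.1, 23.7, 21.8 and 31.4 CPM in P0 controls, without overlap. Its log2 fold change was -0.71 ± 0.17 (adjusted p = 0.00188) in controls and -0.84 ± 0.17 (adjusted p = 0.000456, edgeR) in CKO lungs, or -0.52 ± 0.16 (adjusted p = 0.0168) in CKO lungs without the 3 marker-high libraries. In CKO lungs Hoxa5 went from 33.4, 35.5, 51.2 and 40.96 CPM to 18.3, 26.3, 15.4 and 29.9 CPM, again without overlap, and at P3 it was at 30.7, 25.3, 27.3 and 27.2 CPM in controls and 29.8, 30.3, 29.5 and 32.4 CPM in CKO lungs. P0 CKO replicate 3 had the lowest Hoxa5 of all libraries, 15.4 CPM. Hoxa2, Hoxa3, Hoxa4 and Hoxa7 did not pass the test in either genotype, with log2 fold changes of -0.24 to 0.21.

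**Figure D4:**
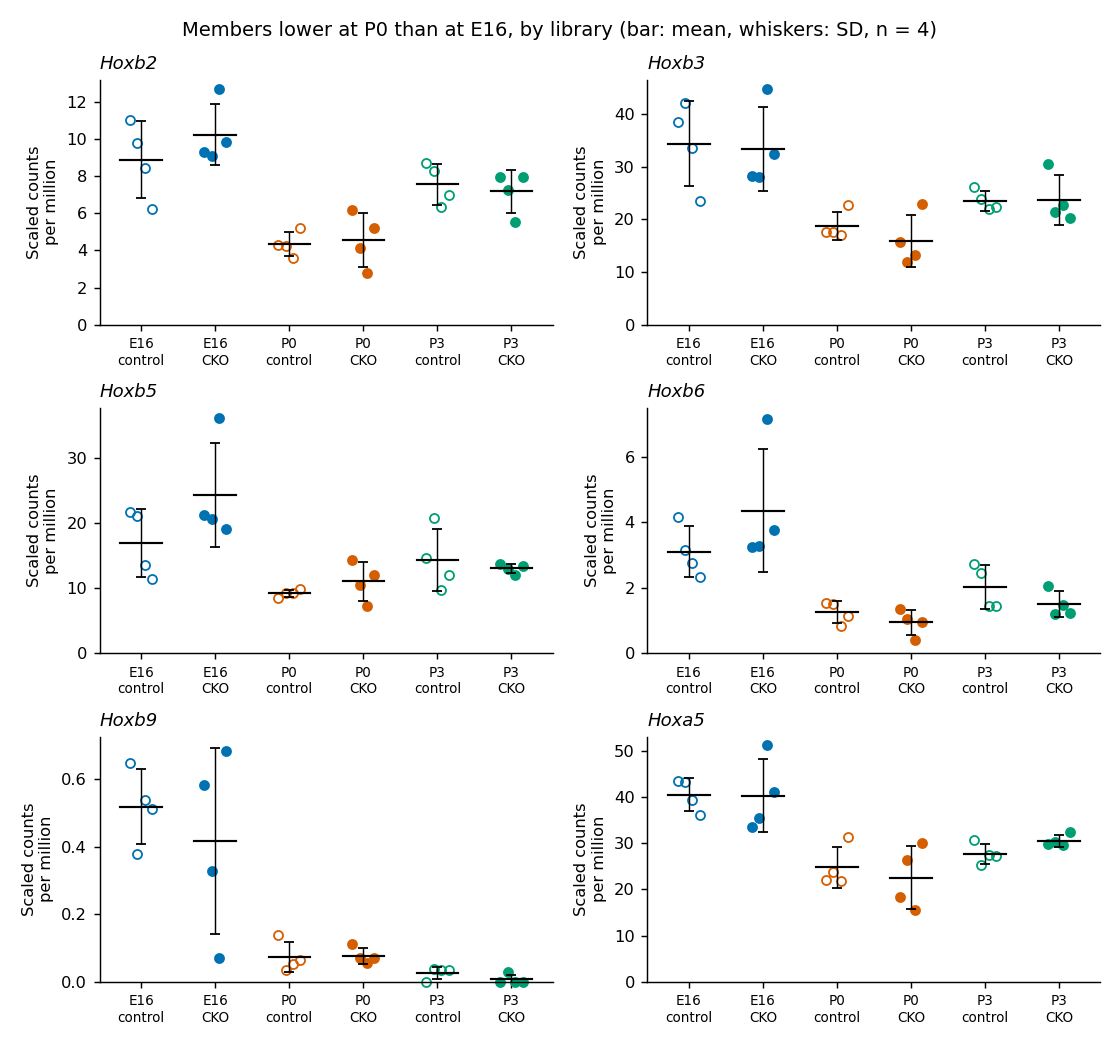
Scaled counts-per-million of 6 members that were lower at P0 than at E16, in each of 24 libraries by group, open for control and filled for CKO, with mean and SD (n = 4). The mean of each member drops from E16 to P0 in both genotypes, but Hoxb9 passed the filter through its high E16 libraries. In Hoxa5, Hoxb3, Hoxb5 and Hoxb6 the highest E16 CKO point is replicate 3.

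Among low members Hoxb9, a gene of the thoracic axis, passed the filter through the E16 libraries, where it had 24, 11, 16 and 18 counts in controls and 18, 12, 2 and 22 counts in CKO lungs. At P0 it had 4, 1, 2 and 2 counts in controls and 3, 2, 2 and 2 in CKO lungs, and at P3 no library had more than 1. Its log2 fold change from E16 to P0 was -2.78 ± 0.60 in controls (adjusted p = 0.000637) and -2.40 ± 0.60 in CKO lungs (adjusted p = 0.00256, edgeR). It is not among the counts given above.

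Hoxd8 and Hoxd9 went the other way, each called in 1 genotype only. The log2 fold change of Hoxd8 in CKO lungs was 0.73 ± 0.42 (adjusted p = 0.162, edgeR). That of Hoxd9 in controls was 1.18 ± 0.63 (adjusted p = 0.126, edgeR). Hoxd8 was at 0.297, 0.926, 0.370 and 0.653 CPM in E16 controls and at 0.857, 1.08, 1.93 and 1.42 CPM in P0 controls, where 1 library of each group overlaps. The log2 fold change was 1.24 ± 0.42 (adjusted p = 0.0190, edgeR), and without P0 control replicate 3 or E16 control replicate 1 or 3 the adjusted p was 0.0682, 0.0696 or 0.0626. Hoxd9 in CKO lungs had 8, 2, 0 and 2 counts at E16 and 14, 8, 18 and 13 counts at P0, a log2 fold change of 2.18 ± 0.66 (adjusted p = 0.00960, edgeR), which was 1.93 ± 0.80 (adjusted p = 0.0622) without the 3 marker-high libraries. It passed the filter of the single-stage fits at P0 alone, and it is not among the E16 to P0 counts given above. The call of Hoxa6 in controls (-1.22 ± 0.47, adjusted p = 0.0371) was lost in 6 of the 8 fits that left out an E16 or P0 control library, and that of Hoxb8 in CKO lungs (-0.93 ± 0.35, adjusted p = 0.0344, edgeR) without E16 CKO replicate 2 or 3 or P0 CKO replicate 1, 2 or 3. Without the 3 marker-high libraries the adjusted p was 0.0606 for Hoxa6 and 0.122 for Hoxb8 (edgeR).

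Marker sums also differed between these stages. Summed lung markers were 4772 to 6069 CPM in E16 controls and 11454 to 18915 CPM in P0 controls, and 3466 to 5909 CPM and 12679 to 16499 CPM in CKO lungs. Summed erythroid markers were 5863 to 8917 CPM and 13644 to 34063 CPM in controls, and 5966 to 16066 CPM and 4169 to 24764 CPM in CKO lungs. The value of 16066 CPM was that of E16 CKO replicate 3, the library with the most Hoxa5, Hoxb3, Hoxb5 and Hoxb6. Its Hoxa and Hoxb sums per kilobase, 47.3 and 39.4, were also the highest of all libraries. Of the 12 lung markers 7 were called higher at P0 in controls, among them Sftpc and Foxf1, and 2 lower, Epcam and Nkx2-1. Summed cartilage and rib markers were lower in P0 controls, at 87.3 to 154 CPM at E16 and 30.2 to 68.8 CPM at P0 without overlap, with 4 of 12 tested called lower, while in CKO lungs they were at 67.6 to 112 CPM and 25.5 to 401 CPM. Summed heart markers were 144 to 353 CPM and 615 to 1253 CPM in controls, with 4 of 6 tested called higher, and 88.0 to 425 CPM and 378 to 825 CPM in CKO lungs. All 12 lung and all 7 erythroid markers in the table were detected in each of these libraries. The part of these shifts in the HOX changes was not tested.

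From P0 to P3 fewer members were called than from E16 to P0. In controls 2 of 19 tested members were called, both higher, where 11.3% of 18415 genes were called with 4.97% higher and 6.34% lower. By the titles P0 controls are Sin3a F/+ and P3 controls F/F, so stage and labelled genotype cannot be told apart in these control changes. Hoxb2 reached 8.69, 8.27, 6.32 and 6.97 CPM in P3 controls, above all P0 controls, a log2 fold change of 0.80 ± 0.22 (adjusted p = 0.0248). Hoxa4 rose by 0.52 ± 0.16 (adjusted p = 0.0396, edgeR), from 8.62 ± 0.816 to 12.4 ± 1.18 CPM (SD, n = 4). The Hoxb2 call was lost without P0 control replicate 1 or 2 or P3 control replicate 1 or 2, with adjusted p of 0.0527 to 0.0681, and that of Hoxa4 without any single P0 or P3 control other than P0 control replicate 3. The signs were positive for 15 of 19 members in each genotype, and the share of positive signs over all genes was not counted. Median log2 fold changes were 0.16 in controls and 0.31 in CKO lungs, against -0.03 and -0.04 over all genes. The 19 include Hoxb9 and Hoxd9, which the E16 to P0 counts leave out, and Hoxc4 and Hoxd4.

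In CKO lungs 0 of 19 members were called from P0 to P3 by edgeR, where 13% of all genes were (6.15% higher, 6.9% lower), with 7 members at unadjusted p under 0.05, as were 30.5% of all genes. DESeq2 called 4 of 19, Hoxb2, Hoxb3, Hoxa2 and Hoxa5, each higher at P3, where it called 18% of all genes. Leaving out P0 CKO replicate 4 gave 3 calls, Hoxa2, Hoxa5 and Hoxb3, where 11.9% of all genes were called. Hoxb2, Hoxb9 or both were called in other fits, among them those without P0 control replicate 1, which shares the estimate of spread. By edgeR the log2 fold change of Hoxb2 was 0.65 ± 0.22 (adjusted p = 0.0531) and that of Hoxb3 0.58 ± 0.21 (adjusted p = 0.0659).

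**Figure D5:**
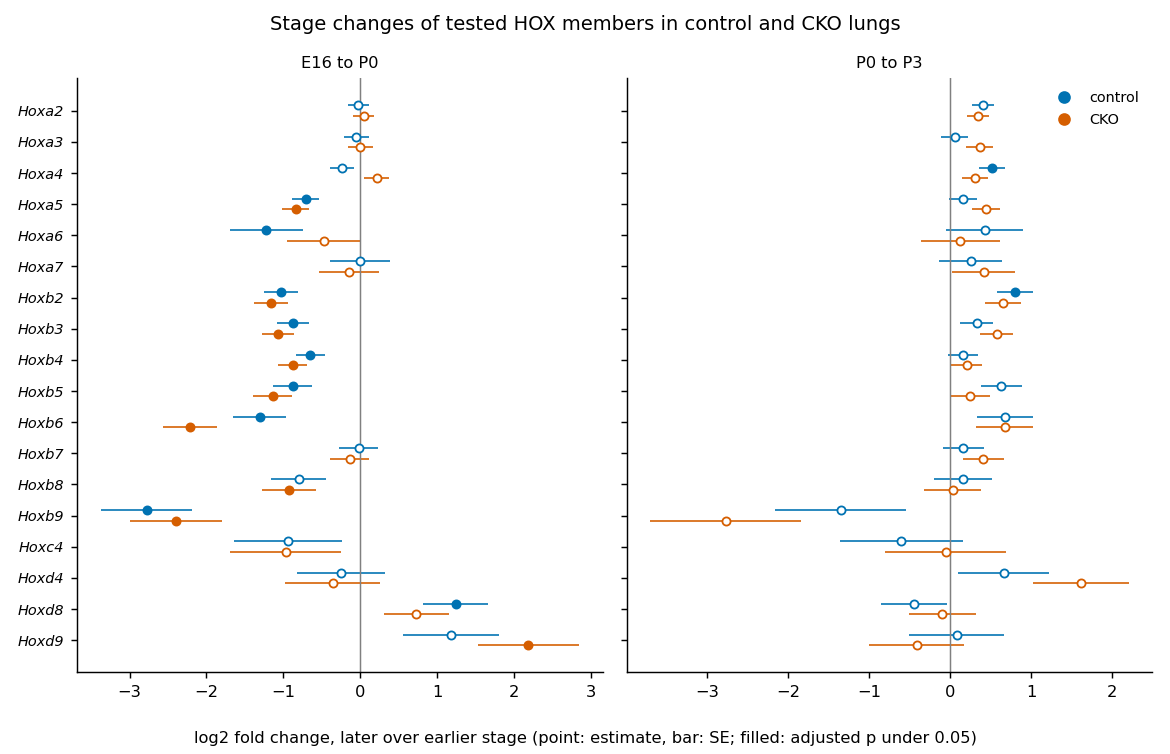
log2 fold change between successive stages (x axis) of tested HOX members (y axis) in control and CKO lungs, E16 to P0 on the left and P0 to P3 on the right. Points are edgeR estimates, bars are SE and filled points have an adjusted p under 0.05. From E16 to P0 the 7 Hoxb members counted in the text lie below 0 in both genotypes. Hoxb9 does too, but it passed the filter through its high E16 libraries.

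Whether the genotype difference changed between stages was tested as an interaction. For both intervals 0 of 19 members and 0% of 18415 genes were called by edgeR, with 0 members at unadjusted p under 0.05, as against 2.8% and 2.3% of genes, and DESeq2 called 0 members. Hoxa4 gave 0.45 ± 0.23 between E16 and P0 and -0.21 ± 0.23 between P0 and P3. Both intervals use the P0 libraries.

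HOX cofactors were all tested, 9 of 9, and in the stage average 3 passed the test, where 8.38% of all genes did. Meis1, a DNA-binding partner of HOX proteins, rose in CKO lungs by 0.37 ± 0.07 on the log2 scale (adjusted p = 0.00260), with means of 63.2 ± 5.61 and 85.1 ± 12.4 CPM at P0. Pknox2, a related cofactor, rose by 0.26 ± 0.07 (adjusted p = 0.0282), and Meis3, another member of the family, fell, with a log2 fold change of -0.74 ± 0.22 (adjusted p = 0.0389, edgeR). Meis1 was called under all 33 alternatives, Pknox2 under 28 and Meis3 under 16. The median of the 9 was 0.05, and at each single stage 0 of them were called. From E16 to P0 Meis1 fell in both genotypes, by 0.60 in controls and by 0.44 in CKO lungs, as did Pknox1 and Pbx3, while Pknox2 rose in both, by 0.39 and 0.58.

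Of genes that flank the clusters 14 were tested and 2 rose in the stage average, against the 8.38% of all genes called. Lnpk, which lies beside the Hoxd cluster, rose by 0.48 ± 0.11 (adjusted p = 0.00765) and Hnrnpa1, beside the Hoxc cluster, by 0.31 (adjusted p = 0.0169, edgeR). The Hoxd members tested, Hoxd4, Hoxd8 and Hoxd9, did not pass the test. Of 17 noncoding genes of the clusters with a row, 5 were tested and 0 called in the stage average.

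Of 20 Polycomb genes 1 was called in the stage average, Phc1, a subunit of Polycomb repressive complex 1, which rose by 0.34 ± 0.07 (adjusted p = 0.00649, edgeR), and the median was 0.02. The share of all genes called was 8.38%. Of 13 Trithorax and MLL genes 0 were called, median 0.09, and of 16 tested retinoic acid genes 0, median -0.08. At single stages 0 genes of these 3 lists were called. From E16 to P0 in controls 8 Polycomb genes fell, including Cbx2 and, of repressive complex 2, Ezh2 and Eed, and 2 rose, Cbx7 and Phf1. Of the 13 Trithorax and MLL genes 6 fell, among them Ash2l, Psip1 and Wdr5, and 0 rose. Over the same interval 7 of 16 retinoic acid genes rose, among them Dhrs3 and the synthesising enzymes Aldh1a1 and Aldh1a3, and 2 fell, among them Rarb. Called genes in these 3 lists, 10 of 20, 6 of 13 and 9 of 16, stand beside the 47.7% called over all genes.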

How the data were processed

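Bulk RNA-seq of whole lungs was used, from 24 libraries in 6 groups of 4. Libraries were made with an Illumina TruSeq RNA kit, per the labels' protocols. The authors deposited expected counts for each gene. All of them were whole as deposited, so rounding changed none. The submitters' processing notes name RSEM 1.3.0, STAR 2.5.3a and edgeR, with mm10 as the build. Annotation, read length and strand setting: not given in the sources used here. Expected counts assign reads with several matches by estimation, which can shift counts between similar genes.

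All 51912 genes entered each fit. Genes were filtered with filterByExpr and scaled by TMM, and tested with robust quasi-likelihood fits in edgeR 4.0.16 (R 4.3.3), with Benjamini-Hochberg adjustment over all genes tested and a threshold of 0.05. DESeq2 1.42.0 and limma 3.58.1 (voom) were alternatives. Comparisons of genotype within a stage used 8 libraries, and the stage average, stage changes and interactions used 24. Levels per kilobase use the union of exons in GENCODE vM21. Totals of 27018100 to 36347000 counts limit what can be said of members with few counts, and floors cover counting error only. The fitting was tested on simulated data.

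Named with values were the 3 most abundant expressed members of each cluster per kilobase, members called in any comparison, the members with the smallest p in each genotype comparison, and called genes of the other lists. The members and lists were chosen, and the stage average added, with earlier results of these data known. Alternatives were other scalings, filters and tools, a replicate block, for the single-stage genotype comparisons alone a block for the first part of the identifier, leaving out each library, and leaving out 3 P0 libraries with high markers of other tissues. Values of some members and listed genes that the rule names are not reported here, though counts and medians include them.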

Additional observations from a re-analysis of the deposited data

Results flagged for a closer look

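In 4 of 78 groups of 4 libraries (13 members in 6 groups) 1 library stood far from the other 3 for a member, where chance flags about 1 in 20 groups. Hoxb5 at 36.3 CPM and Hoxb6 at 7.15 CPM were both highest in E16 CKO replicate 3. That library had the highest Hoxa and Hoxb sums per kilobase of all libraries, 47.3 and 39.4. Its summed erythroid markers were also the highest at E16, 16066 CPM. The part of those markers in these values was not tested. Hoxb3 was highest in P0 control replicate 4, at 22.8 CPM. Hoxa3 was highest in P3 CKO replicate 2, at 16.3 CPM.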

How the results depend on the processing

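The call of Hoxa4 in the stage average was made under all 33 alternatives. In the counts of called members, the P0 genotype comparison gave 1 in a fit of all 24 libraries, where 1.43% of all genes were called. The P3 comparison gave 1 with DESeq2 (3.51% of all genes) and 1 with limma-voom and quality weights (6.79%). From P0 to P3, controls gave 1 without a filter (4.14% of all genes). CKO lungs gave 1 each with median-of-ratios scaling (13.1%), library size only (12.6%), a minimum of 1 CPM in 4 libraries (15.6%) and limma-voom (12.7%). With DESeq2 they gave 4 (18%). The causes were not tested. Leaving out each library in turn gave 0 to 0 calls at E16 and P0 and 0 to 1 at P3. In the stage average it gave 1 to 1. From E16 to P0 it gave 7 to 9 in controls and 8 to 10 in CKO lungs, Hoxb9 and Hoxd9 included. From P0 to P3 it gave 0 to 3 in each genotype, and for both interactions 0 to 0. Over all genes and all alternatives, counts ranged from 3 to 295 at E16, 1 to 264 at P0 and 0 to 1625 at P3. In the stage average they ranged from 981 to 3462. From E16 to P0 they were 7857 to 10607 in controls and 7480 to 8829 in CKO lungs. From P0 to P3 they were 740 to 4968 in controls and 1129 to 3321 in CKO lungs. For the interactions they were 0 to 16 and 0 to 3. Without the 3 marker-high P0 libraries, 22.1% of 18920 genes were called from P0 to P3 in controls and 8.6% in CKO lungs. The main fit gave 11.3% and 13%. From E16 to P0 the shares were 50.9% and 39.6% without them, against 47.7% and 45.4%. With library size only, the P0 to P3 calls in controls were 1025 higher and 816 lower, against 916 and 1167. Depth limits members with a few counts per library.

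Replicate numbers did not pair the libraries: 3 of 12 same-numbered pairs had deviations correlated above 0.1 (r from -0.48 to 0.69). With a replicate block, 1 member was called from P0 to P3 in each genotype, where 10.5% (controls) and 11.5% (CKO lungs) of all genes were. From E16 to P0 it called 9 and 8 members, Hoxb9 and Hoxd9 included, where 46.2% and 43.9% of genes were called. In the stage average it called 1 member, with 5.88% of genes. Elsewhere it called 0 members, with 0.0181%, 0.0116% and 0% of genes at E16, P0 and P3 and 0% for both interactions. A block for the first part of the identifier, fitted for the 3 single-stage comparisons alone, gave 0 called members in each. Of all genes it called 0.0181% at E16, 0.0407% at P0 and 0.00584% at P3.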

Other observations

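Hoxa13, known from limb tips, hindgut and urogenital tract, had 0 counts in all 8 E16 libraries. At P0 it had 4, 10, 3 and 7 counts in controls and 0, 1, 8 and 7 counts in CKO lungs. At P3 it had 0, 5, 0 and 0 counts in controls and 0, 0, 0 and 1 in CKO lungs, 46 counts in all. Its genomic neighbour among the members, Hoxa11, had none in any library.

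Some low members were highest in P0 libraries with high markers of other tissues. P0 control replicate 3 had the highest levels of Hoxc5 (12 counts, 0.321 CPM), Hoxd1 (6 counts, 0.161 CPM) and Hoxd12 (4 counts, 0.107 CPM), and P0 CKO replicate 3 those of Hoxa10 (6 counts, 0.166 CPM) and Hoxc6 (7 counts, 0.194 CPM). Hoxd8 (1.93 CPM) and the 1 count of Hoxc11 were also highest in P0 control replicate 3. The other low members with a count were highest elsewhere. Hoxc4 was highest in E16 control replicate 2, at 0.789 CPM, and Hoxa6, Hoxb9, Hoxc8 and Hoxd3 in other E16 libraries. Hoxa9, Hoxb1, Hoxb13, Hoxd4, Hoxd9, Hoxd10 and Hoxd13 were highest at P3, and Hoxa13 in P0 control replicate 2. The part of those tissues in these counts was not tested.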
